A study of Mus musculus with 3 samples.

Results

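Chondrogenic cells with high Col2a1 were described in 2 single-cell RNA libraries of the mouse embryonic trunk, one from E13.5 and one from E12.5 (E, embryonic day). Col2a1 encodes the main collagen chain of cartilage. Members were selected on their own UMI counts (unique molecular identifiers, each counting 1 captured RNA molecule). A cell was a member when it held at least 10 Col2a1 UMIs, at least 3 UMIs in all of Col9a1, Col9a2, Col9a3, Matn1, Matn4 and Acan, and none of Sox2 or Epcam. The rule took 34 of 7114 cells at E13.5 (0.478%, 95% interval 0.331 to 0.667%) and 216 of 6140 cells at E12.5 (3.52%, 3.07 to 4.01%), 250 of 13254 cells in all. They were set against the other cells of the same library with at least 1 UMI of Pdgfra, a growth factor receptor gene of mesenchymal cells. These numbered 3235 at E13.5, and 2387 in the E12.5 library.

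The tissue was the trunk between the third cervical and the second thoracic segment, with the forelimbs and thoracic organs removed and the somite and lateral plate derivatives and the neural tube kept. Each library pooled cells of 3 littermates, dissociated with the enzyme TrypLE and captured with the 10x Genomics 3' kit, version 3.1, per the labels. A library from E11.5 was made in the same way, and the labels give neither a strain nor a genotype for any stage. Each stage had 1 library, so a stage and its pool of embryos cannot be told apart. The pools also differed in their makeup of sexes, since 91.2% of members at E13.5 and 33.3% at E12.5 held a UMI of Xist, the RNA that silences an X chromosome in female cells.

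Cartilage of the vertebrae, ribs and shoulder girdle forms when mesenchymal cells condense and switch on the transcription factor Sox9. Sox9, with Sox5 and Sox6, drives genes of the cartilage matrix, which is built of type II, IX and XI collagen fibrils and the sulphated proteoglycan aggrecan. Chondrocytes later enlarge (hypertrophy) and pass signals such as Indian hedgehog to the perichondrium, the fibrous sheath in which the first osteoblasts arise.

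The libraries held 113402193 UMIs at E13.5 and 94155624 at E12.5. Members held 5673 to 28423 UMIs each at E13.5 (median 10212) and 4232 to 81197 at E12.5 (median 12465.5), and the other Pdgfra cells had medians of 10443 and 12042. A doublet caller marked 1 member at E13.5 and 3 at E12.5, against 107 and 78 of the other Pdgfra cells. The 2 libraries shared 10 cell barcodes, none of them among members. From their globin UMIs, free RNA from the suspension made up an estimated 2.23% of the members' UMIs at E13.5 and 1.36% at E12.5. Any Col2a1 UMI was found in 11.2% and 35.7% of the other Pdgfra cells. It was found in 5.05% and 5.29% of erythroid cells, which had median depths of 13504 and 18611 UMIs and should lack the gene, so a single Col2a1 UMI was not read as expression. A Pdgfra UMI was found in 19.2% and 6.25% of erythroid cells and in 7.88% and 4.88% of macrophages. The other Pdgfra cells, chosen on 1 UMI, therefore included some cells of other types. Globin made up over 1% of the UMIs in 42 of them at E13.5 and 23 at E12.5.

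Levels are summed UMIs of a group per 1000000 of its UMIs (CPM), and log2 ratios compare summed CPM of members with that of the other Pdgfra cells. Intervals are exact 95% intervals that cover counting error only. With 1 library per stage no test between groups was possible, cells are not replicates, and folds are descriptions of these libraries.

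The genes used in the rule are given as a description. Members held 10 to 245 Col2a1 UMIs each at E13.5 (median 19.5) and 10 to 162 at E12.5 (median 25). Their UMIs of the 6 partner genes ran from 3 to 340 at both stages, with medians of 33 at E13.5 and 48.5 at E12.5. Summed Col2a1 was 3339.5 CPM in members against 18.2 CPM in the other Pdgfra cells at E13.5, and 2473 against 78.4 CPM at E12.5. Matn1, a matrilin of cartilage, stood at 606 against 0.567 CPM at E13.5 and 379 against 2.64 CPM at E12.5. Acan, the gene of aggrecan, stood at 477 against 0.953 CPM and 170.5 against 1.36 CPM. Pdgfra itself, which chose the other cells, was at 124 CPM in members against 179 CPM at E13.5 and 117 against 221 CPM at E12.5. It had a UMI in 20 of 34 and 121 of 216 members.

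Cells on both sides of the Col2a1 limit held Sox9. The 5 members at E13.5 and 36 at E12.5 with 10 to 12 Col2a1 UMIs had Sox9 at 279.6 and 620 CPM. The 8 and 55 cells that missed the rule with 7 to 9 Col2a1 UMIs had Sox9 at 309.7 and 476 CPM. Sox9 was thus higher inside the limit at E12.5. Cnmd (chondromodulin), which the rule did not use, was at 107.5 CPM inside and 10.7 CPM outside at E13.5. At E12.5 it was at 41.8 CPM inside and 53.5 CPM outside. A Sox2 or Epcam UMI alone kept out another 8 cells at E13.5, and 19 more at E12.5. The 6 marker genes of the cell type (Col2a1, Col9a1, Col9a2, Matn4, Acan and Snorc) summed to 11 to 451 UMIs per member at E13.5 and 13 to 343 at E12.5. The rule itself used 5 of them and so fixed a high sum. Snorc, the marker it did not use, had a UMI in 9 of 34 and 31 of 216 members.

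**Figure D1:**
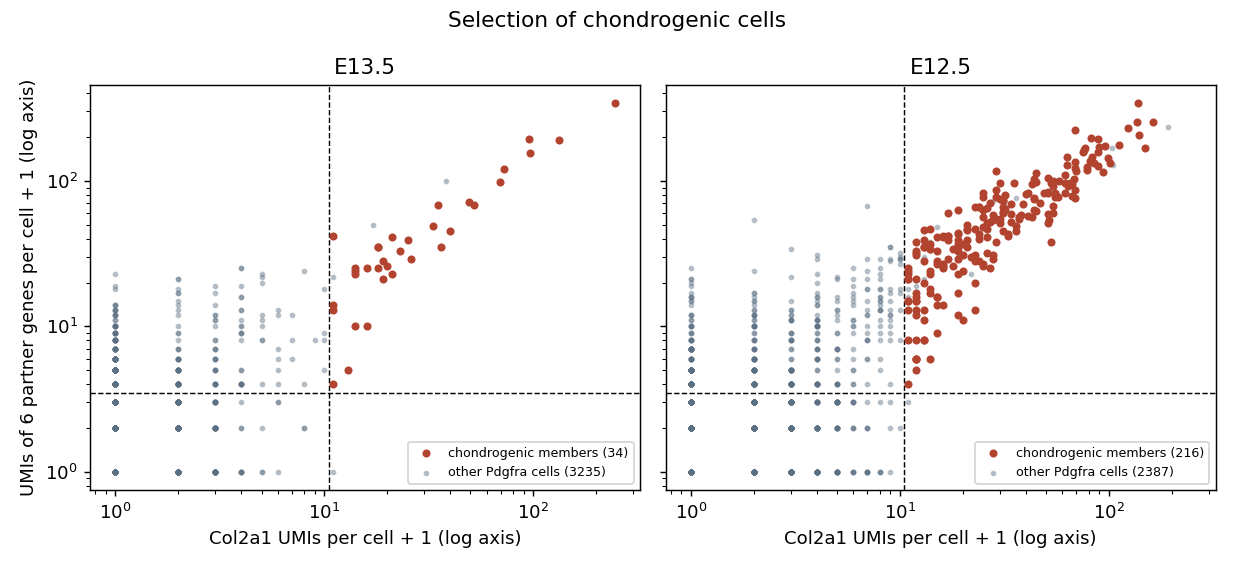
Col2a1 UMIs per cell against the summed UMIs of Col9a1, Col9a2, Col9a3, Matn1, Matn4 and Acan (log axes), E13.5 left and E12.5 right; members are red (34 and 216 cells), other Pdgfra cells grey (3235 and 2387), and dashed lines mark 10 and 3 UMIs. Members spread over more than 10-fold along both axes, and grey cells past both lines hold a Sox2 or Epcam UMI.

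Markers of most other cell types summed to less in members than in the other Pdgfra cells. The neural progenitor genes Sox2, Pax6 and Olig2 were at 0 in members at both stages, and Sox2 was barred by the rule. Muscle markers summed to 25.8 CPM in members against 96.2 CPM in the other Pdgfra cells at E13.5, with Myod1 and Myf5 at 0, and to 76.9 against 136 CPM at E12.5. At E12.5, 1 member held 176 of the muscle marker UMIs and was kept. Macrophage markers summed to 10.3 against 60.5 CPM and to 0.958 against 18.7 CPM. Endothelial markers summed to 7.74 against 33.7 CPM at E13.5 and to 31.0 against 43.5 CPM at E12.5. Mural cell markers summed to more in members, 64.5 against 39.7 CPM at E13.5 and 57.5 against 21.7 CPM at E12.5. Cspg4 was the only mural marker to reach the minimum level for testing, with log2 ratios of 2.40 and 3.06. Kcnj8 and Abcc9 had no UMI in members at E13.5. Schwann cell markers stood at 7.74 against 9.84 CPM and at 22.7 against 12.8 CPM. Osteoblast markers stood at 0 against 3.45 CPM at E13.5 and at 15.0 against 3.58 CPM at E12.5. Tendon markers stood at 116.1 against 118.3 CPM and at 69.0 against 133 CPM. Dermal and epidermis markers summed to less in members at both stages. Neuron markers went the opposite way at the stages, with 186 against 70.3 CPM at E13.5 and 63.8 against 198 CPM at E12.5. Erythroid markers summed to 549.7 against 7079.9 CPM at E13.5 and to 3623 against 3799.9 CPM at E12.5, where 1 member held 10580 of these UMIs. Their part in the results was not tested, apart from leaving out that member. The other Pdgfra cells included some erythroid cells and macrophages, so a lower sum in members describes the comparison cells as well as the members.

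Notochord markers stood at 214 CPM in members against 7.91 CPM in the other Pdgfra cells at E13.5, and at 3.19 against 13.7 CPM at E12.5. At E13.5, 79 of these UMIs came from 1 member. This cell held 41 UMIs of Shh (sonic hedgehog, made by notochord), 2 of T (the notochord factor Brachyury), 28 of Krt8 and 265 of Car3. It also held 48 UMIs of Col2a1, 14 of Acan, 7 of Sox9 and 53 of the 142 UMIs of Snorc, with none of Matn1 or Pdgfra. It stayed among the members by the rule. At E12.5 T, Noto, Shh and Krt19 were all at 0 in members.

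Of 8401 genes tested at E13.5 (a mean of the 2 groups' CPM of at least 10), 546 were at least 2-fold higher in members (6.5%) and 601 at least 2-fold lower (7.15%). Of 8486 genes tested at E12.5, 215 were higher (2.53%) and 336 lower (3.96%). Members held 387481 UMIs at E13.5 and 3132567 at E12.5, so genes near the minimum rested on few UMIs at E13.5. No interval entered the count. At a minimum of 50 CPM the shares were 3.36% higher and 3.46% lower at E13.5, and 2.20% and 2.82% at E12.5. The median log2 ratio of all genes tested was 0.01 at E13.5 and -0.06 at E12.5. A gene can pass the minimum through the group in which it is high, so the counts over lists are descriptions. The rule genes were left out of all of them.

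Most transcription factors and partners of chondrogenesis that reached the minimum level stood higher in members at both stages. The list held 22 genes, and those not tested missed the minimum level. Of the list, 11 of 14 genes tested were at least 2-fold higher at E13.5 and none lower (median log2 ratio 2.43), and 9 of 13 at E12.5 with none lower (median 1.61). Sox9, the factor that starts chondrogenesis, was at 563 CPM (490.4 to 642) in members against 74.9 CPM in the other Pdgfra cells at E13.5, a log2 ratio of 2.91 (2.70 to 3.11). At E12.5 it was at 987 CPM (953 to 1023) against 108 CPM, a log2 ratio of 3.19 (3.12 to 3.26). Members held a median of 6.5 Sox9 UMIs and at most 22 at E13.5, and a median of 12 and at most 59 at E12.5. With every cell thinned to 4000 UMIs, a Sox9 UMI was found in 70.6% of members (52.5 to 84.9%) against 18.7% of the other Pdgfra cells at E13.5, and in 89.8% (85.0 to 93.5%) against 20.9% at E12.5. The share in erythroid cells was 6.57% and 1.44%.

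Sox5 and Sox6, which act with Sox9 on cartilage genes, had log2 ratios above that of Sox9. Sox5 stood at 175 CPM in members against 5.67 CPM at E13.5 and at 195 against 14.4 CPM at E12.5 (log2 ratios 4.95 and 3.75). Sox6 stood at 108 against 4.22 CPM and at 131 against 11.8 CPM (4.68 and 3.46). The forkhead factor gene Foxc1 was at 183 against 20.1 CPM at E13.5 and at 159 against 52.3 CPM at E12.5, and Foxc2 at 51.6 against 9.55 CPM and 142 against 23.3 CPM. Trps1, a GATA-type repressor active in growth plates, was at 328 against 60.7 CPM and at 219.9 against 89.7 CPM. Wwp2, a ubiquitin ligase gene that in mouse hosts the cartilage microRNA miR-140, was at 475 CPM (409 to 549) against 14.4 CPM at E13.5 and at 544 CPM (518 to 570.1) against 30.4 CPM at E12.5, log2 ratios of 5.05 and 4.16. Nfia, Nfib and Arid5b lay within 2-fold at both stages, with log2 ratios between -0.84 and -0.33.

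**Figure D2:**
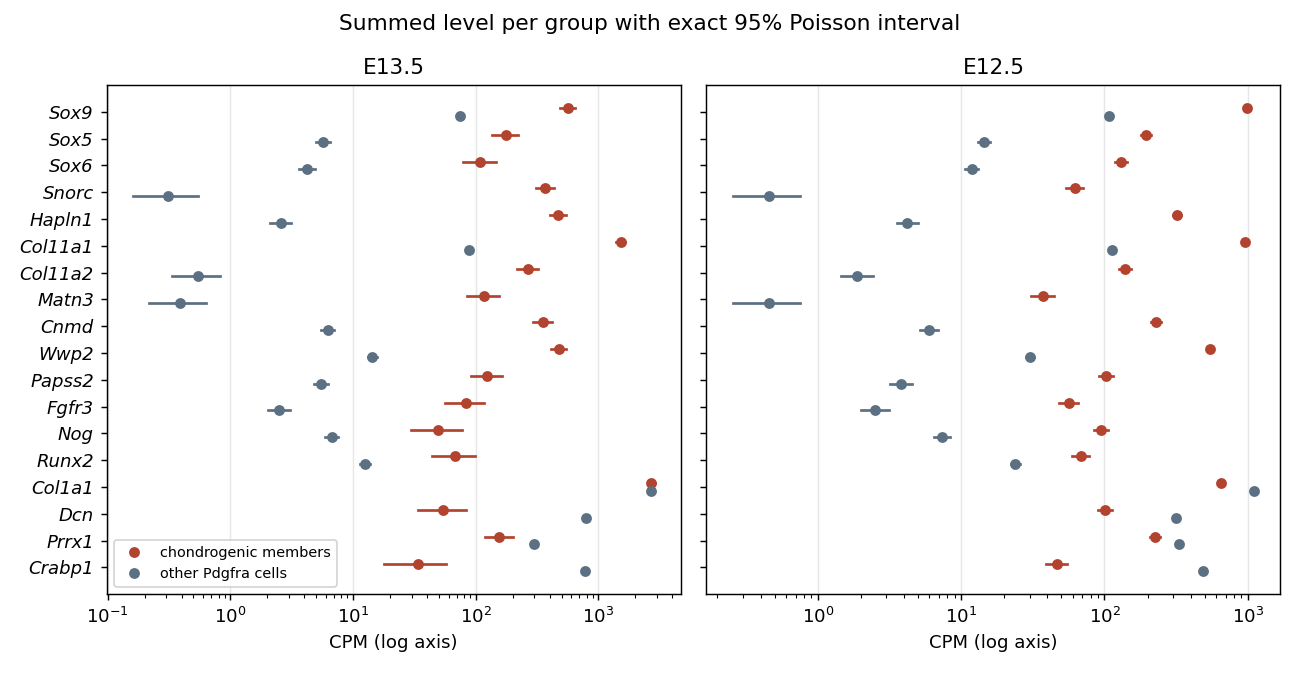
Summed level in CPM (log axis, 95% Poisson intervals) of 18 genes in members and in the other Pdgfra cells, E13.5 left and E12.5 right. Sox9 stands at 563 against 74.9 CPM at E13.5 and at 987 against 108 CPM at E12.5.

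Cartilage matrix genes outside the rule showed the highest ratios. At E13.5, 19 of 26 tested were at least 2-fold higher in members and none lower (median log2 ratio 4.02), and at E12.5 16 of 24 were higher and 2 lower (median 2.79). Col11a1, a chain of the collagen that forms the fibril core, was at 1520.1 CPM in members against 87.7 CPM at E13.5 and at 951 against 113 CPM at E12.5 (log2 ratios 4.12 and 3.08). Its partner chain Col11a2 was at 266 against 0.541 CPM and at 139.8 against 1.88 CPM (8.94 and 6.22). Hapln1, the link protein that ties aggrecan to hyaluronan, was at 469.7 against 2.58 CPM at E13.5 and at 319.9 against 4.22 CPM at E12.5 (7.51 and 6.25).

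Snorc, a small membrane proteoglycan gene of chondrocytes, was at 366 CPM (309 to 432) in members against 0.309 CPM at E13.5 and at 61.9 CPM (53.5 to 71.3) against 0.455 CPM at E12.5. Its log2 ratios were 10.21 (9.36 to 11.20) and 7.09 (6.33 to 7.95). Of its E13.5 UMIs, 37.3% came from the member with notochord genes. Without that member the E13.5 log2 ratio was 9.58. Matn3, a matrilin, had log2 ratios of 8.23 and 6.35, and Cnmd (chondromodulin, which keeps vessels out of cartilage) 5.82 and 5.26. Mia, a small secreted protein of chondrocytes, was at 637 against 9.32 CPM at E13.5 and 589.9 against 21.6 CPM at E12.5.

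Several proteoglycan genes followed, among them Epyc (epiphycan) at 217 against 2.42 CPM at E13.5 and 60.0 against 7.31 CPM at E12.5. All Epyc UMIs of members at E13.5 came from 4 cells, with up to 33 in 1 cell. Comp and Chad, matrix proteins of cartilage, were tested at E13.5 only and had log2 ratios of 8.65 and 9.11 there. Both ratios rest on few UMIs and carry a wide counting error. In the 24 E13.5 members with a Sox9 UMI after thinning, Comp and Chad were each at 27.0 CPM. In the 10 without, Comp was at 7.77 CPM and Chad at 31.1 CPM. The genes lower in members at E12.5 were Col6a1 (52.0 against 122 CPM, log2 ratio -1.23) and Col6a2 (-1.21), chains of the type VI collagen that in mature cartilage surrounds each chondrocyte. At E13.5 they were lower by less than 2-fold (-0.68 and -0.58). Vcan, the proteoglycan versican of early mesenchyme, had log2 ratios of 0.32 and 0.33.

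The 15 genes with the highest log2 ratio at E12.5 were, in order, Snorc, Matn3, Susd5, Hapln1, Col11a2, Scin, Cytl1, BC006965, Ncmap, Cmtm5, Cnmd, Lbhd2, Mia, Papss2 and Prelp. Of these, 13 were tested at E13.5 and all 13 were past 2-fold in the same direction there. Susd5 had log2 ratios of 8.86 (E13.5) and 6.26 (E12.5). Scin, the gene of the actin-severing protein scinderin, had 8.52 and 5.94. Cytl1, a cytokine-like protein gene of cartilage, was at 152 against 0.901 CPM at E13.5 and at 159.9 against 2.73 CPM at E12.5. BC006965, a long non-coding RNA gene, was at 20.6 against 0.567 CPM at E13.5 and at 63.8 against 1.18 CPM at E12.5 (5.19 and 5.75). Lbhd2 was at 30.01 against 0.971 CPM at E12.5 and missed the minimum level at E13.5.

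The promoters of BC006965 and Lbhd2 are shown because they were the 2 of the 15 genes whose windows held a Sox-type motif. BC006965 is the gene directly before Sox9 on chromosome 11 in RefSeq. The windows run from 250 bases before to 50 after the gene start, in RefSeq on GRCm38.p6, and lie at chr11:112711307-112711606 (minus strand) and chr12:111406559-111406858 (plus strand). Capitals mark ACAAAG, 43 bases before the BC006965 start, and ACAATG, 186 bases before the Lbhd2 start.
BC006965 promoter: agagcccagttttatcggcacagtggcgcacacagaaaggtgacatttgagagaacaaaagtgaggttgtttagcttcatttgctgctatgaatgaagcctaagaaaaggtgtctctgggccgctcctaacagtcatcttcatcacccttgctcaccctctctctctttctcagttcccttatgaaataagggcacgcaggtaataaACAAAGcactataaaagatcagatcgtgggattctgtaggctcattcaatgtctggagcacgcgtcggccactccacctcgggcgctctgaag
Lbhd2 promoter: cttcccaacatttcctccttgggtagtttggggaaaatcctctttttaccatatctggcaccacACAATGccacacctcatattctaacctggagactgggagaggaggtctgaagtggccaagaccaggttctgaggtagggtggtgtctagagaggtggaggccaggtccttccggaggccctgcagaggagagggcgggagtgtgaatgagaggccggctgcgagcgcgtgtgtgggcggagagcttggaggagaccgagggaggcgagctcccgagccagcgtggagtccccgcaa
ACAAAG or ACAATG, searched on both strands, occurred in 28.6% of all 32851 promoter windows and in 2 of the 17 windows (11.8%) of the 14 genes with an entry among the 15. A match is a description of the letters and not a binding site.

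Wwp2 and Col27a1 host the microRNAs miR-140 and miR-455, which in mouse are known from cartilage, and both hosts stood higher in members. Col27a1, a fibrillar collagen gene, was at 343 against 45.3 CPM at E13.5 and 263 against 45.1 CPM at E12.5 (log2 ratios 2.92 and 2.54). The microRNAs themselves were not measured, and their mature sequences are given as what these 2 transcripts carry. In RefSeq on GRCm38.p6 miR-140-3p lies at chr8:107551288-107551308, miR-455-5p at chr4:63256867-63256888 and miR-455-3p at chr4:63256904-63256924, all on the plus strand, and capitals mark the seed (bases 2 to 8), which differs among all 3.
miR-140-3p: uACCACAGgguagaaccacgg
miR-455-5p: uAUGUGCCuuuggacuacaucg
miR-455-3p: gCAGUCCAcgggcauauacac

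Genes of sulphation and proteoglycan synthesis stood higher in part. Of this list, 8 of 22 genes tested at E13.5 (median log2 ratio 0.80) and 7 of 21 at E12.5 (median 0.67) were at least 2-fold higher, and none lower. Papss2, which makes the sulphate donor, was at 124 against 5.51 CPM at E13.5 and 102 against 3.82 CPM at E12.5 (4.49 and 4.74), while its relative Papss1 had log2 ratios of 0.43 and 0.64. The sulphate carrier Slc26a2 was at 64.5 against 11.1 CPM and 44.4 against 10.3 CPM. Chst11, a chondroitin sulphotransferase, was at 61.9 against 5.2 CPM and 33.5 against 7.01 CPM. Ugdh, which makes a sugar precursor of the chains, was at 155 against 63.3 CPM and 177 against 64.8 CPM.

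Among 36 genes of collagen folding and crosslinking tested at each stage, 7 were at least 2-fold higher and 1 lower at E13.5 (median log2 ratio 0.38), and 5 higher and 2 lower at E12.5 (median 0.35). The lysyl hydroxylase gene Plod2 led them at 387 against 56.8 CPM at E13.5 and 306 against 63.8 CPM at E12.5. The prolyl hydroxylase P4ha2 had log2 ratios of 2.22 and 1.70, P4ha1 1.04 and 1.20, and the lysyl oxidase-like gene Loxl3 2.13 and 1.91. Creb3l1, a factor of collagen secretion in bone, was lower (-1.997 and -1.06). Serpinh1, the collagen chaperone, had log2 ratios of 0.37 at both stages.

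Several regulators on the way towards hypertrophy were higher in members. Of the 8 tested genes of this list, 6 were at least 2-fold higher and 1, Pth1r, lower at E13.5 (median log2 ratio 1.92), and 6 higher and none lower at E12.5 (median 1.91). Fgfr3, the receptor that slows chondrocyte growth, was at 82.6 against 2.5 CPM at E13.5 and at 56.2 against 2.52 CPM at E12.5 (log2 ratios 5.05 and 4.48). Runx2, which drives hypertrophy and bone formation, was at 67.1 against 12.54 CPM and 68.3 against 23.8 CPM. Mef2c was at 101 against 37.4 CPM and 124 against 33.7 CPM. All Spp1 UMIs of members at E13.5 came from 1 cell, and its log2 ratio at E12.5 was 1.94, or -1.81 with the rule applied to thinned UMIs. Runx3, a relative of Runx2, had 1.07 at E13.5, or -0.011 in cells with at most 5% mitochondrial UMIs, and 3.89 at E12.5.

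Indian hedgehog (Ihh) gave 1 UMI in members at E13.5. At E12.5 it gave 45 UMIs in 11 members, 14.4 against 0.0607 CPM, and 28 of them came from 1 cell. Pthlh, its partner signal, was at 10.3 against 1.57 CPM at E13.5 and 9.26 against 1.67 CPM at E12.5, and the receptor Pth1r at 38.7 against 88 CPM and 64.2 against 81.2 CPM. Col10a1, the collagen of hypertrophic cartilage, had no UMI at E13.5 but 1 UMI at E12.5. The collagenase Mmp13 had none at either stage. The osteoblast factor Sp7 had no UMI in members at E13.5 and 40 UMIs in 31 members at E12.5 (12.8 against 1.06 CPM), with Ibsp, a bone matrix gene, at 0 at both stages. A count of 0 allows up to 3 UMIs of the members' 387481 at E13.5, so low levels were not detectable there.

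BMP and TGF-beta genes were higher more often than lower in members. Of 26 tested at each stage, 7 were at least 2-fold higher and 1 lower at E13.5 (median log2 ratio 0.29), and 7 higher and 3 lower at E12.5 (median 0.42). Nog (noggin, which binds BMPs) was at 49.0 against 6.7 CPM at E13.5 and 94.8 against 7.37 CPM at E12.5 (2.87 and 3.69). Bmp2 was at 33.5 against 13.9 CPM and 68.0 against 13.8 CPM, and the receptor Bmpr1b had log2 ratios of 2.02 and 1.07. The antagonist Sostdc1 was lower (-4.03 and -2.45). Grem1, another antagonist, had log2 ratios of 0.88 at E13.5 and -2.15 at E12.5, a difference that was not tested.

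Of 11 hedgehog pathway genes tested at E13.5, 4 were at least 2-fold higher and 1 lower (median log2 ratio 0.32), against 1 higher and 1 lower of 8 at E12.5 (median -0.11). Ptch1, receptor and target of hedgehog signals, was higher at both stages, at 82.6 against 17.2 CPM at E13.5 and 67.7 against 23.3 CPM at E12.5. Shh passed only through the 41 UMIs of the member with notochord genes. Gas1, a hedgehog co-receptor, was past 2-fold lower at E12.5 (-1.49) and had -0.80 at E13.5. Among FGF genes 3 of 12 tested were at least 2-fold higher and 3 lower at E13.5 (median 0.03), and 4 of 10 higher and 3 lower at E12.5 (median 0.24). The receptor genes Fgfr2 (2.14 and 2.23), Fgfr3 and Fgfrl1 (2.86 and 2.12) were higher at both stages, and the feedback inhibitors Spry1 (-1.76 and -1.67) and Spry2 (-1.17 and -1.39) were lower.

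WNT pathway genes leaned lower, with 3 of 19 tested at least 2-fold higher and 5 lower at E13.5 (median log2 ratio -0.47), and 2 higher and 5 lower at E12.5 (median -0.58). The secreted inhibitor Frzb (3.05 and 2.26) and the receptor Fzd9 (5.99 and 4.36) were higher. The activator Rspo3 (-1.90 and -1.66) and the antagonist Dkk2 (-1.51 and -2.41) were lower, and Axin2, a WNT target, had -0.53 and -1.25. Among IGF genes, 4 of 18 were at least 2-fold higher and 3 lower at E13.5 (median 0.15), and none of 17 higher and 3 lower at E12.5 (median 0.14). Igf1, the growth factor, was at 72.3 against 489 CPM at E13.5 and 67.7 against 302 CPM at E12.5. Igfbp3, which binds it, had -3.07 and -2.08, and Dlk1, an imprinted gene, 661 against 1775 CPM and 518 against 1039 CPM.

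Sclerotome genes, which mark the somite part that forms vertebrae and ribs, went in both directions. At E13.5, 4 of 13 tested were at least 2-fold higher and 5 lower (median log2 ratio -0.44), and at E12.5 4 of 16 were higher and 4 lower (median 0.07). Pax1 was at 10.3 against 14.01 CPM at E13.5 and 40.5 against 34.8 CPM at E12.5 (-0.44 and 0.22), and Pax9 had 1 UMI in members at E13.5 and 24.3 against 18.6 CPM at E12.5. Uncx, which patterns the rear sclerotome, had no UMI in members at E13.5 against 1.93 CPM in the other Pdgfra cells, and 37.7 against 7.01 CPM at E12.5 (2.43). Foxd1 was at 173 against 35.4 CPM and 236 against 110.0 CPM. Tbx18 (-4.00 and -2.76), Meox1 (-2.35 and -2.38) and Ebf2 (38.7 against 135 CPM and 36.7 against 138 CPM) were lower at both stages.

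Genes of limb girdle and lateral plate mesenchyme were lower more often than higher. At E13.5, 1 of 11 tested was at least 2-fold higher and 4 lower (median log2 ratio -0.82), and at E12.5 2 of 13 were higher and 8 lower (median -1.28). Alx1 was higher at both stages (2.44 and 2.36), and Msx2 had 1.47 at E12.5, or -1.49 with the rule applied to thinned UMIs. Osr1, a factor of loose connective tissue, was at 36.1 against 137 CPM and 24.6 against 147 CPM, and Prrx1 at 155 against 296 CPM and 225 against 331 CPM. Tbx5, a forelimb field gene, had -0.48 at E13.5 and -2.81 at E12.5. Of 20 Hox genes tested at each stage, 3 were at least 2-fold higher and 1 lower at E13.5 (median 0.07), and none higher and 4 lower at E12.5 (median -0.28).

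Joint, perichondrium and fibrous genes were lower more often than higher. Of 19 tested at each stage, 2 were at least 2-fold higher and 6 lower at E13.5 (median log2 ratio -0.29), and 1 higher and 8 lower at E12.5 (median -0.77). Gdf5, the marker of joint zones, was at 28.4 against 1.6 CPM at E13.5 (4.15), and at 11.8 against 3.7 CPM at E12.5, where it missed the minimum level. Dcn (decorin) was at 54.2 against 798 CPM and 101 against 318 CPM, and Aspn (asporin) had -3.60 and -2.02. Col1a1, the main collagen of bone and fibrous tissue, was at 2697 against 2674 CPM at E13.5 and at 646 against 1099 CPM at E12.5 (0.01 and -0.77). Among tendon genes, Scx was at 51.6 against 40.0 CPM and 56.5 against 87.5 CPM, and Tnmd had -0.59 and -1.88.

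The 10 genes with the lowest log2 ratio at E12.5 were Cxcl13, C1qtnf7, Thbs4, Wnt2, Tmeff2, Shox2, Crabp1, Cxcl14, a (agouti) and Hmx1. Of these, 9 were tested at E13.5 and 8 were past 2-fold lower there. Cxcl13, a chemokine gene, was at 0.638 against 77.9 CPM at E12.5 and had no UMI in members at E13.5 against 46.7 CPM, at least 6.03-fold lower with the members' count set to 3 UMIs. Crabp1, a retinoic acid binding protein, was at 33.5 against 784 CPM at E13.5 and 46.3 against 485 CPM at E12.5.

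Glycolysis and hypoxia genes were shifted upwards in members, with 6 of 21 tested at least 2-fold higher at each stage and none lower (median log2 ratios 0.57 and 0.53). Ldha, which makes lactate, was at 976 against 382 CPM at E13.5 and 797 against 346 CPM at E12.5. Eno1 was at 261 against 91.1 CPM and 275 against 134 CPM, the glucose carrier Slc2a1 had log2 ratios of 1.84 and 1.20, and the lactate carrier Slc16a3 2.54 and 1.65. Cell cycle genes lay close to the other Pdgfra cells. None of 20 S phase genes was past 2-fold at E13.5 (median 0.11) and 1, Ung, was higher at E12.5 (median 0.38), and none of 20 G2 and M phase genes was past it at either stage (medians -0.03 and 0.04). Among immediate early genes, which dissociation can switch on, none of 16 was higher at E13.5 and 3 were lower (median -0.58), and of 13 at E12.5 1 was higher and 1 lower (median -0.05).

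Matrix proteases and their inhibitors were mixed, with 4 of 13 at least 2-fold higher and 2 lower at E13.5 (median log2 ratio 0.47) and 1 of 12 higher and 2 lower at E12.5 (median -0.05). The higher genes at E13.5 were the proteases Htra1 and Adamts6 and the inhibitors Timp1 and Timp3, and at E12.5 Adamts6. Adamts5 (-3.32 and -1.68) and Adamts9 (-2.68 and -1.37), which cut aggrecan and versican, were lower at both stages. Of 19 integrin and adhesion genes, 1 (the heparan sulphate proteoglycan gene Sdc4) was higher and 2 lower at each stage, with medians of -0.07 and -0.23.

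**Figure D3:**
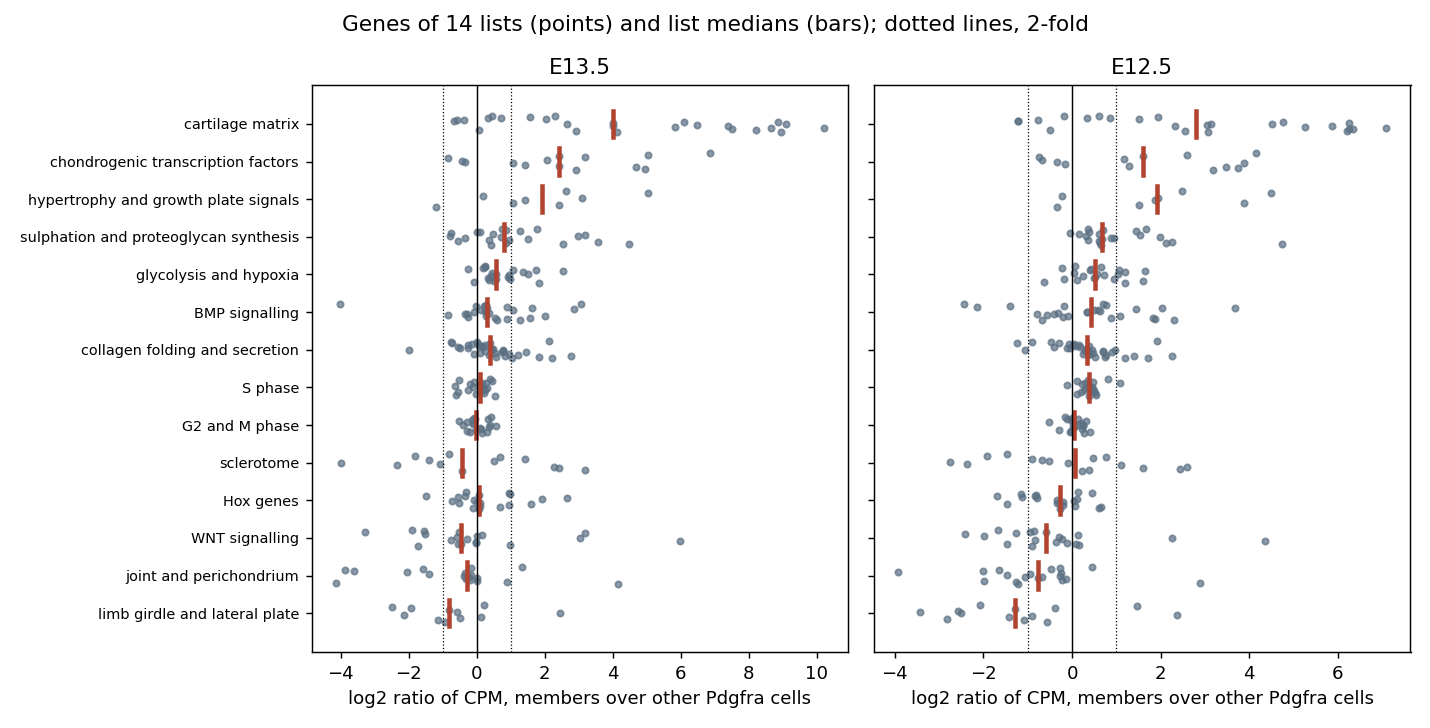
Log2 ratio of members over the other Pdgfra cells for each tested gene of 14 lists (points) with the list's median (bar), E13.5 left and E12.5 right; dotted lines mark 2-fold in each direction. Cartilage matrix has the highest medians, 4.02 and 2.79, beside 0.01 and -0.06 for all genes tested.

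Members varied widely among themselves. At E12.5 they were ranked by the share of Col2a1 in their UMIs and cut into 3 bands of 72 cells, a division that rests on a rule gene and was made after the data were seen. The bands had a median of 10.7, 20.4 and 52.2 Col2a1 UMIs per 10000 from lowest to highest, and median depths of 16081.5, 11490 and 11268 UMIs. Matrix genes climbed across the bands, with Hapln1 at 18.03, 126 and 978 CPM and Matn1 at 1.44, 203 and 1136 CPM. Snorc was at 0, 59.5 and 161 CPM, and Col11a1 at 333, 691 and 2165 CPM. Cnmd stood at 47.6, 209.9 and 529.98 CPM and Scin at 0.721, 21.0 and 129 CPM.

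Factors and signals followed the matrix genes. Sox9 was at 617, 961 and 1589.9 CPM, Sox5 at 105, 194 and 335 CPM and Sox6 at 57.7, 147 and 228 CPM from the lowest to the highest band. Fgfr3 was at 15.9, 38.5 and 136 CPM, Runx3 at 0.721, 19.8 and 49.5 CPM and Ihh, with 28 UMIs from 1 cell, at 0.721, 6.996 and 42.8 CPM. Fibrous genes ran the other way, with Col1a1 at 1137, 444 and 75.4 CPM, Col3a1 at 1351, 503 and 196 CPM and Igf1 at 137, 15.2 and 10.1 CPM. Pdgfra was at 170, 111 and 41.6 CPM and the tendon factor Scx at 76.5, 66.5 and 15.8 CPM. Bmp2 (39.7, 122 and 59.6 CPM) and Gdf5 (11.54, 24.5 and 0 CPM) were highest in the middle band. Pax1 (32.5, 52.5 and 41.6 CPM), Uncx (32.5, 47.8 and 36.0 CPM) and the proliferation gene Mki67 (113, 45.5 and 105 CPM) had no order across the bands. All 3 called doublets lay in the lowest band, which was also the deepest, and the part of depth was not tested.

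**Figure D4:**
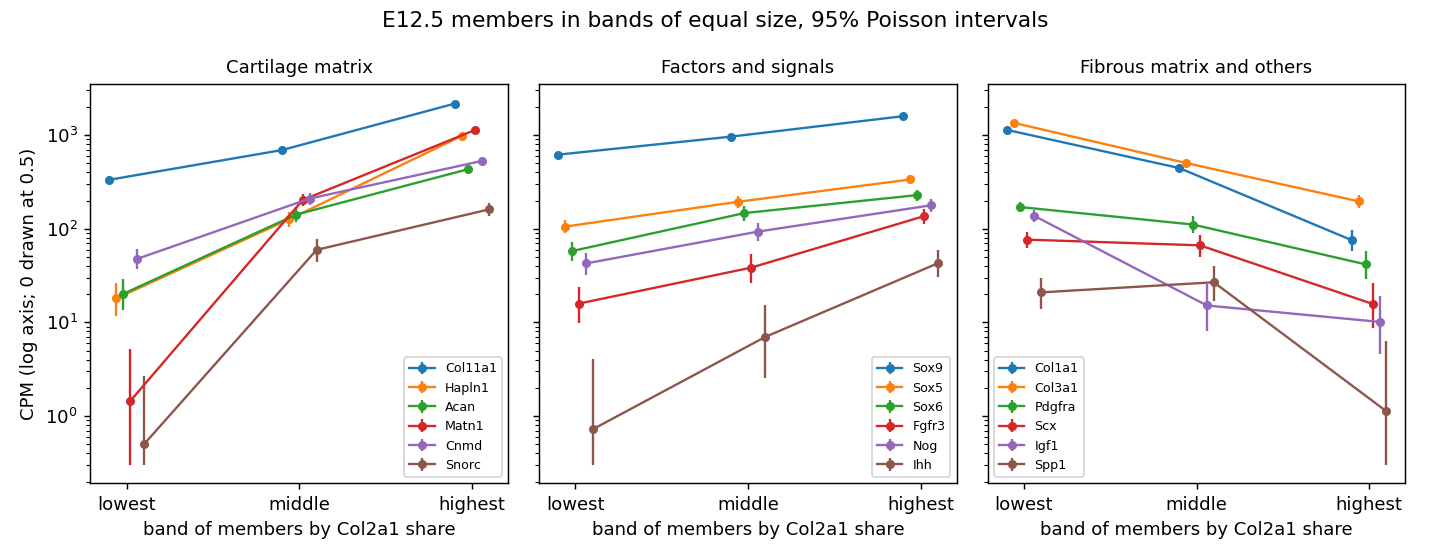
CPM (log axis, 0 drawn at 0.5, 95% Poisson intervals) across 3 bands of 72 E12.5 members ranked by their share of Col2a1, for matrix genes, for factors and signals and for fibrous genes. Hapln1 stands at 18.03 CPM in the lowest band and 978 CPM in the highest, and Col1a1 at 1137 and 75.4 CPM.

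Most members with a Matn1 UMI held little Col1a1. At E13.5, 7 of 34 members (20.6%, 8.70 to 37.9%) held a Matn1 UMI. These 7 cells had Col2a1 at 7485 CPM and Col1a1 at 337 CPM, with a median of 0 Col1a1 UMIs per cell, against 1880.6 and 3527 CPM and a median of 34 Col1a1 UMIs in the 27 members with none. At E12.5, 83 of 216 members (38.4%, 31.9 to 45.3%) held a Matn1 UMI, with Col1a1 at 116 CPM against 929 CPM in the 133 with none. In the same order Hapln1 was at 855 against 34.8 CPM, Snorc at 175 against 1.47 CPM and Sox9 at 1412 against 761 CPM at E12.5. At E13.5 Hapln1 was at 1576 against 80.2 CPM, Snorc at 862 against 192 CPM and Sox9 at 744 against 499 CPM. The member with notochord genes was among the 27, and without it Hapln1 stood at 14.6 CPM, Snorc at 7.28 CPM and Sox9 at 495 CPM in the remaining 26. The split was chosen after the data were seen, and median depths were 14592 against 9217 UMIs at E13.5 and 11754 against 12732 UMIs at E12.5.

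**Figure D5:**
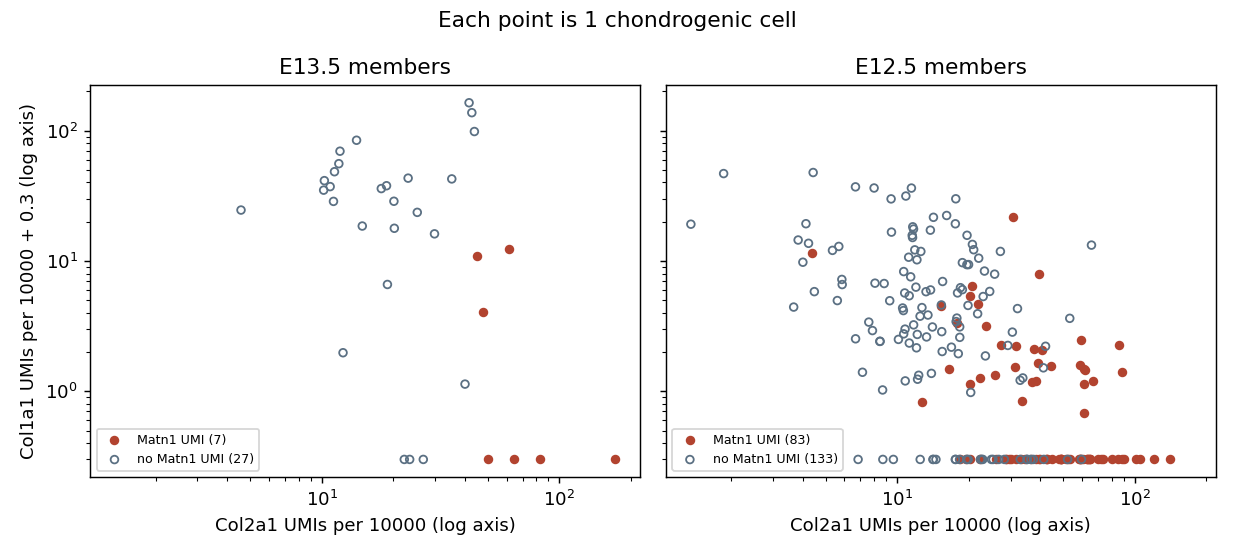
Col2a1 against Col1a1 UMIs per 10000 UMIs in each member (log axes, 0.3 added to Col1a1), E13.5 left and E12.5 right, with and without a Matn1 UMI (7 and 27 cells, and 83 and 133 cells). Members with Matn1 lie mostly at high Col2a1 and low Col1a1, though at E12.5 their raw Col2a1 counts ran from 10 to 162 UMIs.

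Other divisions of the E12.5 members were made on UMIs thinned to 4000 per cell, and were also chosen after the data were seen. A Pax1 or Pax9 UMI was found in 36 members. Of these, 33.3% held Uncx against 10.6% of the 180 without, 55.6% against 12.8% held Id4 (an inhibitor of helix-loop-helix factors) and 30.6% against 9.44% held Cspg4. Cytl1 was found in 11.1% against 33.3% and Bmp2 in 2.78% against 21.1%. The 61 members with a Pdgfra UMI held Hapln1 in 13.1% against 47.1% of the 155 without and Mia in 52.5% against 76.1%, while Col1a1 was found in 63.9% against 37.4% and Vcan in 78.7% against 54.2%. The 194 members with a Sox9 UMI held Wwp2 in 77.3% against 45.5% of the 22 without, and Col1a1 in 40.7% against 81.8%. On all their UMIs the 22 still had Sox9 at 221.6 CPM, and Col2a1 at 1031 CPM against 2744 CPM in the 194. Median depths with and without the UMI were 12215.5 and 18795.5 UMIs for Sox9. They were 9414.5 and 12988 UMIs for Pax1 or Pax9, and 13620 and 11923 UMIs for Pdgfra. The part of depth in these divisions was not tested.

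Stages were not compared, since E13.5 held 34 members, under the 50 set as the least number, and each stage had 1 library. Side by side, Col1a1 was at 2697 CPM in members at E13.5 and 646 CPM at E12.5, and at 2674 and 1099 CPM in the other Pdgfra cells of these stages. Col3a1, which goes with it in fibrous tissue, was at 2906 and 791 CPM in members and 3431 and 1657 CPM in the other Pdgfra cells. Both collagens thus differed between the libraries in members and in the cells beside them. In droplets of free RNA Col1a1 was at 407 CPM in the E13.5 library and 152 CPM in the E12.5 library. Intervals on these values cover counting error only, and no test was made.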

How the data were processed

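The deposited files hold raw UMI counts per gene and barcode of whole 10x libraries, which the authors produced in Cell Ranger 8.0.1 against GRCm39, per the submitters' processing notes. Its annotation release was not given in the sources used here, and 26 symbols shared by several gene IDs were kept apart. The E13.5 and E12.5 libraries were described, and E11.5 only in the closing section. Barcodes with at least 4000 UMIs, 500 genes and at most 10% mitochondrial UMIs were kept as cells. The chondrogenic cells and the lists (38 lists, 536 of 538 genes in the files) were chosen with earlier results of these data known. One further gene of the lists is not reported here.

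UMIs were summed per group and scaled to CPM, with exact Poisson intervals. Log2 ratios have exact conditional binomial intervals, shares exact Clopper-Pearson intervals, all at 95%, covering counting error only. A gene was tested at a mean of at least 10 CPM and counted as past the limit at 2-fold. Rule, Xist, Y-linked, mitochondrial, ribosomal and globin genes were left out. In ratios a count of 0 was set to 3 UMIs. Shares of cells were taken after thinning to 4000 UMIs unless stated otherwise. Named genes were the list genes, the 15 highest and the 10 lowest ratios at E12.5. Genes of the divided members were picked after their values were seen.

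Doublets were called with scrublet in scanpy 1.11.5 and kept in. Free RNA was read from droplets of 50 to 500 UMIs. Python 3.11.15, numpy 2.4.6, scipy 1.17.1, pandas 2.3.3 and matplotlib 3.10.9 were used, and the ratio step was tested on simulated data with 200 changed genes. Alternatives changed the rule, the cell filter, the level minimum, scaling, doublets and free RNA.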

Additional observations from a re-analysis of the deposited data

Results flagged for a closer look

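Cells meeting the same rule were also found in the E11.5 library, which the comparisons leave out, 130 cells in all. Hoxb9 was higher in members at E13.5 and lower at E12.5, with log2 ratios of 2.65 and -1.13 over the other Pdgfra cells. Its 31 UMIs in members at E13.5 came from 3 cells, 16 of them from 1. Stmn2, a neuron marker, was at 108 against 33.0 CPM at E13.5 and at 18.5 against 55.6 CPM at E12.5, with log2 ratios of 1.72 and -1.59. For both genes the intervals at the 2 stages lie on opposite sides of 0, and the difference between stages was not tested.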

How the results depend on the processing

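No paired analysis was possible because each stage had 1 library and the labels give no replicate numbers. For the same reason no replicate could be left out. The alternatives for a stage comparison were not run, since E13.5 held under 50 members. The 34 members at E13.5 became 58 with a Col2a1 minimum of 5 UMIs, 17 with 20, 22 with the rule on thinned UMIs and 17 with at most 5% mitochondrial UMIs. The 216 at E12.5 became 135 with 20 and 99 thinned. Higher genes at E13.5 (546) became 935 at a minimum of 5 CPM, 101 at 50 CPM, 915 at 20 Col2a1 UMIs and 841 thinned, and lower genes (601) 954, 104, 928 and 953. Higher genes at E12.5 (215) became 67 at 50 CPM and 354 thinned, and lower genes (336) 543 at 5 CPM, 86 at 50 CPM, 590.0 at 20 UMIs and 788 thinned. Shares without thinning were 91.2% for Sox9 at E13.5, and 98.6% for Sox9, 63.0% for Cnmd and 20.4% for Pax1 at E12.5. Log2 ratios changed sign at E13.5 for Runx3 (-0.011) and Chrdl1 (-0.28) at 5% mitochondrial UMIs. They also did so there for Hoxa10 (-0.076) and Timp3 (-0.60) with the rule thinned and for Timp3 (-0.24) at 20 UMIs. Without the member with notochord genes, an alternative chosen after seeing the data, Cdkn1a (-1.21) and Krt18 (-0.19) did. At E12.5 Spp1 (-1.81), Msx2 (-1.49) and Ecrg4 (-1.20) changed sign with the rule thinned. These causes were not tested. Of the 139 named genes past 2-fold at E12.5, between 130 and 139 kept their call under each alternative, with the fewest under the thinned rule. At E13.5, 131 of 150 such genes kept it under the thinned rule, 134 of 150 at 20 UMIs, 137 of 150 at 5% mitochondrial UMIs and 142 of 151 with a mean of CPM over cells. The sizes of the log2 ratios held less well. Under the thinned rule at E12.5, 240 of 382 named ratios left their counting interval, 3 changed sign and 139 did neither. With 20 Col2a1 UMIs, 164 of 382 left it. At E13.5, 128 ratios left it under the thinned rule and 90 with 20 UMIs, while 261 and 299 did neither. Each other alternative moved fewer ratios. The intervals thus do not cover the choice of rule. Depth limits E13.5 most, where members held 387481 UMIs.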

Other observations

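At E11.5, 130 of 6313 cells met the rule (2.06%, 95% interval 1.72 to 2.44%), with a median of 13 Col2a1 UMIs and a highest count of 38. Going from E11.5 over E12.5 to E13.5, cells meeting the rule had Pax1 at 251, 40.5 and 10.3 CPM and Uncx at 109, 37.7 and 0 CPM. Matn1 was at 0, 379 and 606 CPM, Snorc at 0, 61.9 and 366 CPM (237 CPM at E13.5 without the member with notochord genes), and Acan at 7.97, 170.5 and 477 CPM. Sox9 was at 658, 987 and 563 CPM, Col1a1 at 90.6, 646 and 2697 CPM, and Fgfr3 at 7.13, 56.2 and 82.6 CPM. The other Pdgfra cells of these libraries had Pax1 at 47.7, 34.8 and 14.01 CPM, Uncx at 20.2, 7.01 and 1.93 CPM, and Col1a1 at 340.1, 1099 and 2674 CPM. In the same cells Sox9 was at 192, 108 and 74.9 CPM and Fgfr3 at 5.77, 2.52 and 2.498 CPM. With 1 library per stage, stage and pool of embryos cannot be told apart, and no test was made.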
